A study of Mus musculus with 12 samples.

Results

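Mitf, Sox10, Kit, Kitl, Ednrb and Pax3, a set of 6 genes that direct the melanocyte lineage, were followed over 12 microarrays of sorted mouse skin cells. They were found by symbol among the array's transcript clusters, which are groups of probes that cover 1 transcribed region and are read as 1 value. Clusters annotated with a single symbol were used, each of the 6 genes had 1 such cluster, and together they are 6 of the 36706 genes measured this way. No measured value entered that rule, but the 6 genes were chosen with earlier results of these data known. The arrays fell into 4 groups of 3: bitransgenic basal, wild-type basal, bitransgenic suprabasal and wild-type suprabasal keratinocytes, all from the skin of FVB/N mice at postnatal day 4. Keratinocytes form the bulk of the epidermis, and the layers were separated by fluorescence-activated sorting of primary cells. The labels give the altered genotype only as bitransgenic (BT) and do not describe its 2 transgenes or what drives them, while the series title names progerin, a truncated form of lamin A. Each array carries a code, but nothing in the labels ties a code to an animal, so every p-value below measures only the spread between these samples.

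Melanocytes are the pigment cells of skin and hair. They arise from the neural crest, migrate through the embryonic skin, and in mouse trunk skin settle mainly in hair follicles around birth. Keratinocytes and fibroblasts make Kitl, the ligand of the receptor tyrosine kinase Kit, and endothelin 3 signals through the G-protein-coupled receptor Ednrb; both receptors sit on melanoblasts and melanocytes and are needed for their survival and migration. Inside the cell the transcription factors Pax3 and Sox10 act on the melanocyte promoter of Mitf, and Mitf in turn activates the pigment genes Dct, Tyr and Tyrp1, which encode enzymes of melanin synthesis. Dct is switched on early in the lineage and served here as the pigment signal of each array.

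Promoter sequence is shown to make the Mitf, Dct, Tyr and Tyrp1 links concrete, because their signals differed between layers in the same direction. The M-box, an extended E-box bound by Mitf, was searched as the letters GTCATGTGC on both strands of the 250 bases before each start in RefSeq promoters of build GRCm38.p6. Those letters were found in 0.25% of 32851 promoter windows, and the 6-letter core CATGTG that they contain in 12.3%. Each of Dct, Tyrp1 and Tyr had 1 M-box, which began 152, 48 and 23 bases before the listed start. The stretches around them, with the M-box in capitals, run 5′ to 3′ on the strand of the gene and lie at chr14:118052349-118052438 (Dct, minus strand), chr4:80834125-80834212 (Tyrp1, plus strand) and chr7:87493513-87493575 (Tyr, minus strand).
Dct: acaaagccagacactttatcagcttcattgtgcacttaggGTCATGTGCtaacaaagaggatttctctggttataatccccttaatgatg
Tyrp1: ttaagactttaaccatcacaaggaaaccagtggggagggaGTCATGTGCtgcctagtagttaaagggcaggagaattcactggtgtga
Tyr: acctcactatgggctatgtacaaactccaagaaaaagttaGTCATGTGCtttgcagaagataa
The 9 capital letters are identical in all 3 stretches. A match is a description of the sequence and was not tested as a binding site.

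For Mitf, the table lists 3 starts, and the 250 bases before the most downstream of them are shown (chr6:97991533-97991782, plus strand). The melanocyte form of Mitf starts from the most downstream of its alternative promoters. Capitals mark the letters CTTTGAT, read by TCF/LEF factors of Wnt signalling and found in 3.21% of promoter windows, and the cyclic AMP response element TGACGTCA, found in 1.55%.
Mitf: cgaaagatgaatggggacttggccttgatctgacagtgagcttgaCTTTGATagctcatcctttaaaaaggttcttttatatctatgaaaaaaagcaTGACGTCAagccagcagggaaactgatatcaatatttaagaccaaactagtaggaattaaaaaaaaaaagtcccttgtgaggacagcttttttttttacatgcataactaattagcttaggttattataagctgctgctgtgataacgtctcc
The CTTTGAT letters began 205 bases and the TGACGTCA letters 153 bases before that start. Neither of the other Mitf windows held either motif, and the M-box and its core were in none of the windows of Mitf, Kit, Kitl and Ednrb. The letters ACAAAG, a core read by SOX factors, were in 16.5% of windows, including those of Dct and Tyrp1. Sox10 and Pax3 had no promoter window in the table. The array reads all Mitf starts as 1 cluster, from position 97807058 to 98021358 of chromosome 6 (mm10, plus strand), so the promoter in use cannot be told from its signal.

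Signals are given as log2 values, so a difference of 1 is a doubling. Levels of the 6 genes are compared between arrays and not with each other, because probes differ in brightness. The background marks, the brightest gene of a list and summed signals do set different probes side by side. They describe array signal and not amounts of RNA. Array medians lay between 5.28 and 5.46. The 95th percentile of the intronic control probe sets of each array, between 8.04 and 8.81, was taken as the mark for background, with the highest antigenomic control, between 6.49 and 7.30, as a more lenient mark added after the values were seen. The bitransgenic suprabasal array X667_05 stood apart from the other suprabasal arrays in pigment signal: its Dct was 9.14, against 11.57 to 12.98 on the other 5, so the averaged layer difference of each of the 6 genes and the calls in each gene list are given with and without it. It was singled out by its low Dct, and Kit, Ednrb, Mitf, Pax3 and Sox10 were also lowest on it among suprabasal arrays. Leaving it out therefore widens their averaged layer differences and narrows their spread, so fits without it are not separate evidence. Those fits called 4.05% of all 65956 clusters in the average, 1.4% in wild type and 0.191% in bitransgenic cells, either way. The melanocyte markers Dct, Tyr, Tyrp1, Pmel and Mlana were read to check that pigment-cell RNA was present, and 3 of them (Dct, Tyrp1 and Pmel) were above the intronic mark on all 6 suprabasal arrays. Xist and the Y-linked gene Ddx3y showed that 2 of 3 bitransgenic arrays in each layer (X667_05 in both, X722_07 in basal and X682_05 in suprabasal) had the opposite sex pattern from the other 8 arrays. Markers of the layers themselves were also read: of 7 basal keratinocyte genes 0 were called, with a median log2 difference of 0.53 between basal and suprabasal arrays averaged over genotypes, and of 7 suprabasal keratinocyte genes 1 was called, Sbsn, with a list median of -0.44, against -0.013 over all clusters. Of all clusters that comparison called 0.472% higher and 0.694% lower in basal cells. Without X667_05 suprabasal 2 of 7 basal keratinocyte genes (Col17a1, 0.88, and Krt14, 0.37) were called higher in basal cells and 2 of 7 suprabasal keratinocyte genes (Sbsn, -0.66, and Lor, -0.48) lower, by limma.

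The ligand gene Kitl, the survival and migration factor that keratinocytes supply to melanocytes, was the member whose layer difference ran the other way (chromosome 10, 100015630 to 100100413, mm10, plus strand). Kitl read 7.73, 7.88 and 7.86 on the bitransgenic basal arrays X721_05, X667_05 and X722_07 and 7.59, 7.83 and 7.60 on the wild-type basal arrays X667_06, X682_11 and X721_08. In suprabasal arrays it was 7.14, 7.76 and 8.15 in bitransgenic cells (X721_05, X667_05 and X682_05) and 7.58, 7.45 and 6.73 in wild type (codes as in basal). The wild-type basal arrays were all above the wild-type suprabasal arrays, the nearest values being 7.59 and 7.58, while the bitransgenic layers overlapped. The layer difference of Kitl, basal minus suprabasal averaged over genotypes, was 0.28 ± 0.179 (log2, SE; 6 arrays a layer), and limma's adjusted p was 0.419. Without X667_05 suprabasal it was 0.30 ± 0.198, with limma's adjusted p = 0.432. Kitl was above the intronic mark on 1 array and above the antigenomic mark on 11 of 12.

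The receptor gene Kit was lower in basal than in suprabasal cells and had the widest range of the 6 genes (chromosome 5, 75574916 to 75656722, plus strand). Its signal was 5.98, 6.25 and 6.12 in bitransgenic basal and 5.98, 5.75 and 5.74 in wild-type basal arrays. Suprabasal signals were 11.15, 6.40 and 9.90 in bitransgenic cells and 8.68, 10.58 and 9.93 in wild type. All 6 basal arrays lay below all 6 suprabasal arrays, and the lowest suprabasal value, 6.40, was that of X667_05, only 0.15 above the basal array of the same code. Averaged over genotypes, the log2 difference was -3.47 ± 0.666 (SE), with limma's adjusted p = 0.0418. Without X667_05 suprabasal it was -4.16 ± 0.326, with limma's adjusted p = 0.00106. Kit was not above the intronic mark on any basal array and above it on 5 of 6 suprabasal arrays, so the fold is a bound. It is approximately 2.1-fold lower in basal cells with X667_05 suprabasal, below the mark, entered as read. Without that array it is at least 3.2-fold.

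Ednrb, the endothelin receptor of the lineage, followed Kit closely (chromosome 14, 103814615 to 103844476, minus strand). Bitransgenic basal arrays gave 5.69, 6.05 and 5.86 and wild-type basal arrays 5.67, 5.77 and 5.55. Bitransgenic suprabasal arrays gave 10.76, 6.43 and 9.55, and wild-type suprabasal arrays 8.42, 10.13 and 9.60. The layers did not overlap, and X667_05 was again the lowest suprabasal array. Ednrb was lower in basal cells by a log2 difference of -3.38 ± 0.605 (SE; limma's adjusted p = 0.037), and of -4.00 ± 0.304 without X667_05 suprabasal (limma's adjusted p = 0.00101). It was above the intronic mark on 0 basal and 4 of 6 suprabasal arrays, and suprabasal arrays below the mark entered the fold as read. Its approximate bound is 1.7-fold lower in basal cells, or 2.5-fold without X667_05 suprabasal.

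Among the transcription factors, Mitf, the factor that activates pigment genes, was lower in basal cells too. The bitransgenic basal arrays had Mitf at 6.40, 6.43 and 6.52, and the wild-type basal arrays at 6.45, 6.27 and 6.36. In suprabasal cells Mitf reached 9.61, 6.87 and 8.81 in bitransgenic arrays and 8.36, 9.44 and 8.76 in wild-type arrays. The 6 basal values fell within 0.25 of each other, and every suprabasal value was above them. The log2 difference was -2.24 ± 0.381 (SE; limma's adjusted p = 0.0346), and -2.63 ± 0.194 without X667_05 suprabasal (limma's adjusted p = 0.000877). Mitf was above the intronic mark on 4 of 6 suprabasal arrays, and the rest entered the fold as read. Its approximate bound is thus 1.2-fold lower in basal cells, or 1.5-fold without X667_05 suprabasal.

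Pax3, an upstream activator of Mitf that also marks melanoblasts, lies on chromosome 1 from 78101267 to 78197136 (minus strand). Its values were 5.74, 6.05 and 5.75 in bitransgenic basal and 5.95, 5.78 and 5.68 in wild-type basal arrays. In suprabasal arrays Pax3 was 10.15, 6.49 and 8.96 in bitransgenic cells and 7.83, 9.61 and 8.91 in wild type. Basal and suprabasal arrays were again fully separate. The averaged log2 difference of -2.83 ± 0.523 (SE) had limma's adjusted p = 0.0394, and without X667_05 suprabasal it was -3.34 ± 0.308 (limma's adjusted p = 0.0017). Pax3 passed the intronic mark on 4 of 6 suprabasal arrays, and the rest entered the fold as read. As an approximate bound, its signal was 1.2-fold lower in basal cells, or 1.6-fold without X667_05 suprabasal.

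Sox10, the neural crest factor that melanocytes share with Schwann cells, showed the smallest of the 5 decreases (chromosome 15, 79154909 to 79164506, minus strand). It read 7.08, 6.98 and 7.05 in bitransgenic basal and 7.10, 6.83 and 6.91 in wild-type basal arrays. Suprabasal Sox10 was 8.56, 7.24 and 7.89 in bitransgenic and 7.56, 8.21 and 8.20 in wild-type arrays. Every basal array was below every suprabasal array, the nearest values being 7.10 and 7.24. The log2 difference was -0.95 ± 0.196 (SE), with limma's adjusted p = 0.0495, and it was -1.12 ± 0.15 without X667_05 suprabasal (limma's adjusted p = 0.00747). No array had Sox10 above the intronic mark, so no fold is given; 6 of 6 suprabasal arrays and 1 basal array were above the antigenomic mark.

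**Figure D1:**
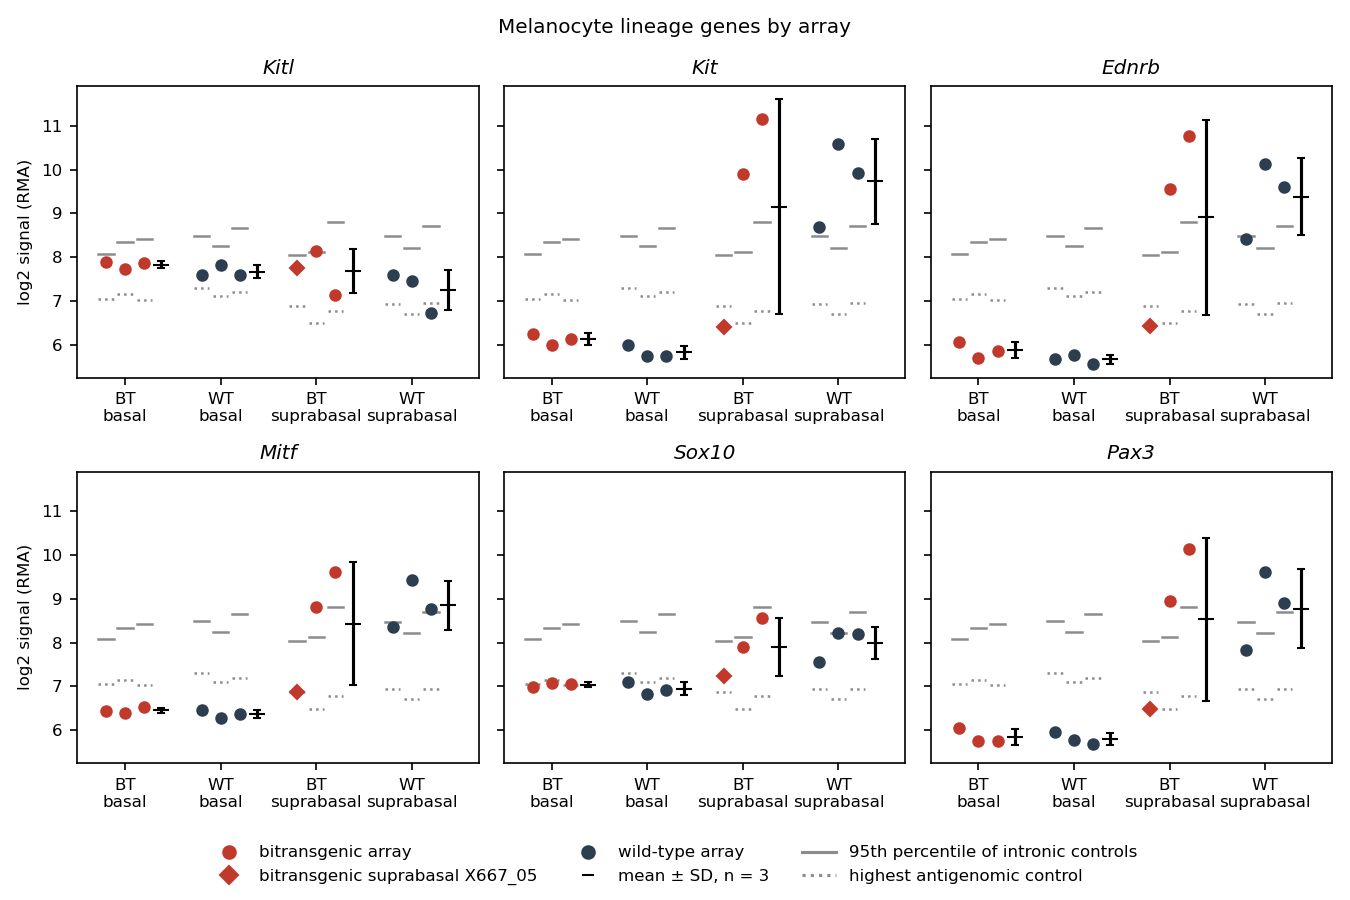
Log2 signal of the 6 genes (y axis) on each array of the 4 groups (x axis): bitransgenic arrays in red, wild-type arrays in dark blue, the bitransgenic suprabasal array X667_05 as a diamond, and each group's mean ± SD (n = 3) in black. Grey lines give each array's intronic (solid) and antigenomic (dotted) mark; Kit, Ednrb, Mitf and Pax3 sit below both marks on all 6 basal arrays, and Kitl changes little between groups.

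Averaged over genotypes, 5 of the 6 genes were called lower in basal cells, against 0.694% of all 65956 clusters, and 0 of 6 were called higher, against 0.472%. The 6 genes were chosen with earlier results of these data known, so this contrast describes them and is not independent support. The same 5 had all 6 basal arrays below all 6 suprabasal arrays, which held for 1.13% of clusters. All 5 were below the intronic mark on every basal array. The calls depended on nearly every array: leaving out any 1 of 9 arrays (all 6 basal arrays, bitransgenic suprabasal X682_05, and wild-type suprabasal X682_11 and X721_08) gave 0 calls, and leaving out bitransgenic suprabasal X721_05 gave 3. The differences of the 5 genes stayed negative in each case, which the full separation of the layers made certain. Arrays of the same code tended to deviate together, as did some arrays of different codes. A random block for the code left the count at 5 of 6 genes, with 2428 of 65956 clusters called. With the code as a fixed block on the arrays that share one, 0 of 6 genes and 0 clusters were called. Limma's adjusted p was then between 0.0885 and 0.102 for the 5 genes. The unmoderated test named in the study's design also called 0 of 6. Fewer melanocytes among the sorted basal cells and less of each RNA per cell cannot be told apart in these bulk samples.

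Within wild type alone, 0 of 6 genes were called lower in basal cells, against 1.04% of clusters, and 0 of 6 higher, against 0.406%. The log2 differences were -3.91 for Kit, -3.72 for Ednrb, -2.98 for Pax3, -2.49 for Mitf, -1.04 for Sox10 and 0.42 for Kitl, and limma's adjusted p lay between 0.0515 (Mitf) and 0.0761 (Sox10) for the 5 genes with negative differences. Those 5 had every wild-type basal array below every wild-type suprabasal array, as had 20.2% of all clusters, and Kitl had the opposite order, as had 7.38% of clusters. With the code as a random block limma called 5 of 6 genes lower in wild-type basal cells, with adjusted p between 0.0293 and 0.0461. Of 65956 clusters that fit called 3600 either way, against 957 with no block. A fixed block called 4 of 6 genes and 1312 clusters. Leaving out bitransgenic suprabasal X667_05 or X721_05, which narrows the pooled spread, also gave 5 of 6, with 921 and 2903 clusters called. Dct, the pigment signal, was called in wild type without any block (-5.49 ± 0.828, SE; limma's adjusted p = 0.0348).

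Within bitransgenic cells the differences were -3.05 for Ednrb, -3.03 for Kit, -2.69 for Pax3, -1.98 for Mitf, -0.86 for Sox10 and 0.14 for Kitl. None of the 6 was called, as for 0.0% of clusters (4916 of 65956 had an unadjusted p under 0.05), and limma's adjusted p was 0.605 for 5 of them and 0.933 for Kitl. The 5 genes with negative differences did not overlap between bitransgenic layers, against 4.27% of clusters. Leaving out X667_05 suprabasal raised the calls to 4 of 6 genes, with log2 differences of -4.41 for Kit, -4.29 for Ednrb, -3.71 for Pax3 and -2.76 for Mitf and limma's adjusted p between 0.0221 and 0.0291; Sox10 then had -1.19 (limma's adjusted p = 0.0847). That fit rests on 2 bitransgenic suprabasal arrays and called 0.191% of all clusters in this comparison. The authors' deposited table gives signed linear folds for bitransgenic basal against suprabasal of -15.87 for Kit (q = 0.689), -14.61 for Ednrb (q = 0.689), -9.94 for Pax3 (q = 0.689), -5.13 for Mitf (q = 0.687) and -1.94 for Sox10 (q = 0.687). For wild type the same table gives -17.12 for Kit (q = 0.162), -14.7 for Ednrb (q = 0.15), -8.87 for Pax3 (q = 0.165), -5.9 for Mitf (q = 0.132) and -2.1 for Sox10 (q = 0.13). These folds are ratios of mean unlogged signals and so take no account of the background mark.

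**Figure D2:**
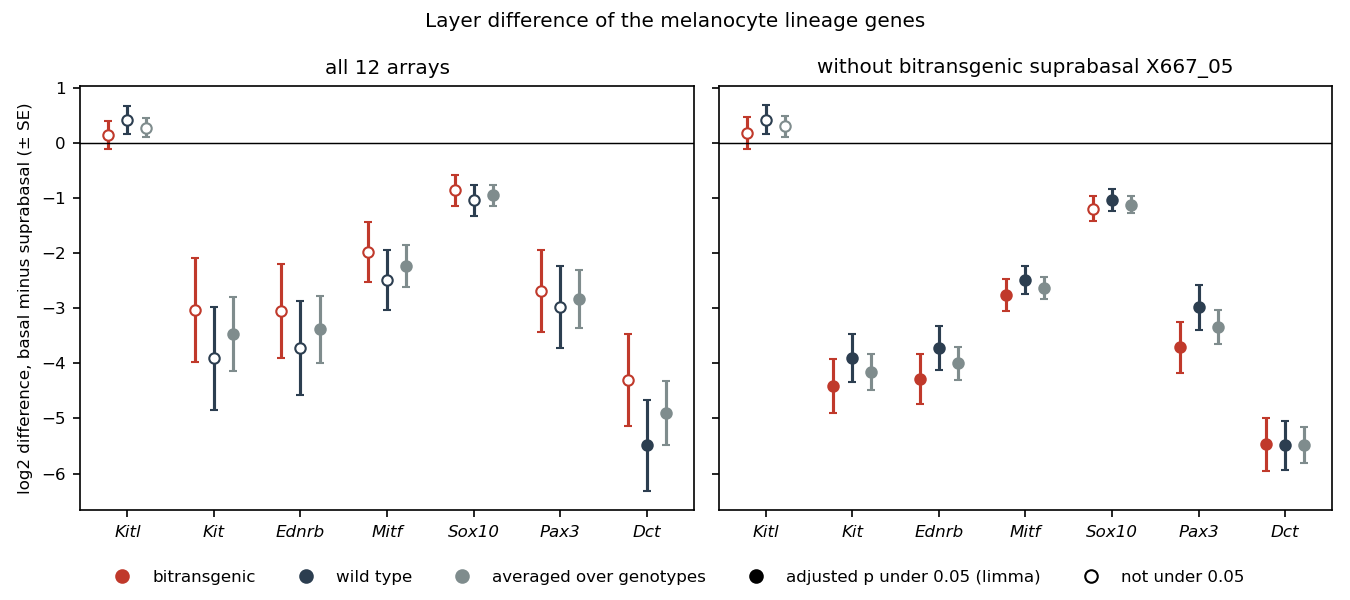
Log2 difference, basal minus suprabasal, of each gene and of Dct (y axis, ± SE) for bitransgenic cells, wild type and the average over genotypes, from limma fits to all 12 arrays (left) and without the bitransgenic suprabasal array X667_05 (right). Filled points have adjusted p under 0.05; for Kit the averaged difference is -3.47 with all arrays and -4.16 without that array.

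Differences were also read between the 2 arrays of one code. For Kit, Ednrb, Pax3, Mitf and Sox10 every basal array lay below every suprabasal array, so each pair had to be lower in basal. Their counts of pairs are therefore no further support, and only the sizes add to the values above. For the 5 codes measured in both layers, Kit was lower in the basal array in 5 of 5, by log2 differences from -5.17 to -0.15 with a median of -4.19. Ednrb was lower in 5 of 5 (median -4.05), as were Pax3 (median -3.23), Mitf (median -2.40) and Sox10 (median -1.29). Kitl was higher in the basal array in 5 of 5, with differences from 0.01 to 0.87 and a median of 0.38. The difference nearest to 0 was that of code X667_05 for the 5 genes that were lower: -0.15 for Kit, -0.38 for Ednrb, -0.44 for both Mitf and Pax3 and -0.26 for Sox10.

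No difference between genotypes was called for any of the 6 genes. In basal cells the bitransgenic minus wild-type differences were 0.29 ± 0.942 for Kit, 0.20 ± 0.856 for Ednrb, 0.15 ± 0.253 for Kitl, 0.09 ± 0.539 for Mitf, 0.09 ± 0.277 for Sox10 and 0.04 ± 0.74 for Pax3 (log2, SE). Limma called 0 of 6 there, as for 0.0% of clusters, with adjusted p between 0.826 and 0.986, while 8649 clusters had an unadjusted p under 0.05. All 6 genes were below the intronic mark on every basal array, and the antigenomic mark was passed by Kitl on 6 of 6 basal arrays and by Sox10 on 1.

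In suprabasal cells the bitransgenic minus wild-type differences were -0.58 ± 0.942 for Kit, -0.47 ± 0.856 for Ednrb, -0.42 ± 0.539 for Mitf, -0.25 ± 0.74 for Pax3, -0.09 ± 0.277 for Sox10 and 0.43 ± 0.253 for Kitl. Limma called 0 of 6, again with 0.0% of clusters called, and adjusted p lay between 0.866 and 0.966 (3440 clusters had an unadjusted p under 0.05). The genotypes overlapped for all 6 genes, and the array with the highest signal and the array with the lowest were both bitransgenic for Kit, Ednrb, Mitf, Pax3 and Sox10 (X721_05 and X667_05). Without X667_05 the 5 negative differences turned positive, at 0.79 for Kit, 0.77 for Ednrb, 0.77 for Pax3, 0.36 for Mitf and 0.23 for Sox10, each with limma's adjusted p = 0.963. The same 5 also turned positive, at 0.14 to 0.51, with a term for the sex pattern in the fit, so no direction is read from them. Both bitransgenic groups held 2 arrays of the other sex pattern and the wild-type groups none, and its part in these values was not otherwise tested.

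The genotype by layer interaction, which asks whether the layer difference differed between genotypes, was called for 0 of 6 genes and 0.0% of clusters (6734 had an unadjusted p under 0.05). Its values, bitransgenic minus wild type, ran from -0.28 ± 0.358 (SE) for Kitl to 0.87 ± 1.33 for Kit, with limma's adjusted p from 0.816 to 0.948. The standard errors for Kit (1.33), Ednrb (1.21) and Pax3 (1.05) are each over 1 on the log2 scale, so an interaction of 1 on that scale was not detectable for these genes with 3 arrays a group.

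Against Dct, 5 of the genes ordered the suprabasal arrays nearly as Dct did. Dct was 12.98 on X721_05, 12.69 on X682_11, 12.35 on X721_08, 12.29 on X682_05, 11.57 on X667_06 and 9.14 on X667_05, and Kit, Ednrb and Sox10 followed exactly that order. Mitf and Pax3 differed from it only in X721_08 and X682_05, whose Dct signals were the closest of the 6. Over the 6 suprabasal arrays Pearson's r with Dct was 0.987 for Kit, 0.983 for Ednrb, 0.982 for Mitf, 0.958 for Pax3 and 0.899 for Sox10, with exact two-sided permutation p of 0.00139 for Kit, Ednrb and Sox10 (the smallest that 6 arrays allow) and 0.00278 for Mitf and Pax3. Spearman's rho was 1.0 for Kit, Ednrb and Sox10 (exact permutation p = 0.00278) and 0.943 for Mitf and Pax3 (exact permutation p = 0.01667). Adjusted over all 65955 other clusters these exact p-values became 0.434, and 0 of 6 genes and 0.0% of clusters were called, while 4385 clusters had an unadjusted p under 0.05 and 0.993% of clusters had r of at least 0.9.

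Without X667_05, r over the other 5 suprabasal arrays was 0.999 for Kit, 0.997 for Ednrb, 0.995 for Pax3, 0.956 for Sox10 and 0.955 for Mitf. Leaving out the 2 arrays farthest from the median Dct signal, X667_05 and X667_06, gave r of 0.998, 0.995, 0.994, 0.892 and 0.969 for the same genes. Kitl stood against this, with r = -0.369 in suprabasal arrays (exact permutation p = 0.45417, adjusted 0.866) and rho = -0.657 (exact permutation p = 0.175). In all, 12 relations with Dct were computed, 6 in each layer, over arrays that were normalized together.

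In basal arrays, where Dct ran from 6.24 to 8.04 and was never above the intronic mark, the picture was looser. Ednrb had r = 0.947 (exact permutation p = 0.00694, adjusted 0.859; rho = 0.886, exact permutation p = 0.03333) and kept 0.716 without the 2 arrays farthest from the median Dct signal, X667_05 and X721_08. Kitl had r = 0.801 (exact permutation p = 0.05278, adjusted 0.859; rho = 0.771, exact permutation p = 0.10278) and 0.694 without those 2 arrays. For Kit r was 0.615 (exact permutation p = 0.18611, adjusted 0.904; rho = 0.638, exact permutation p = 0.2) and for Pax3 0.714 (exact permutation p = 0.10556, adjusted 0.871; rho = 0.829, exact permutation p = 0.05833). Both turned negative without those 2 arrays, at -0.413 and -0.215, so these relations rest on them. For Mitf r was 0.055 (exact permutation p = 0.91389; rho = 0.143, exact permutation p = 0.80278; r = -0.36 without those 2 arrays). For Sox10 r was -0.225 (exact permutation p = 0.66944; rho = -0.257, exact permutation p = 0.65833; r = -0.821 without them). In basal arrays 0 of 6 genes and 0.0% of clusters were called (3668 had an unadjusted p under 0.05). The basal array with the highest Dct, X667_05, belongs to the code whose suprabasal array had the lowest.

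**Figure D3:**
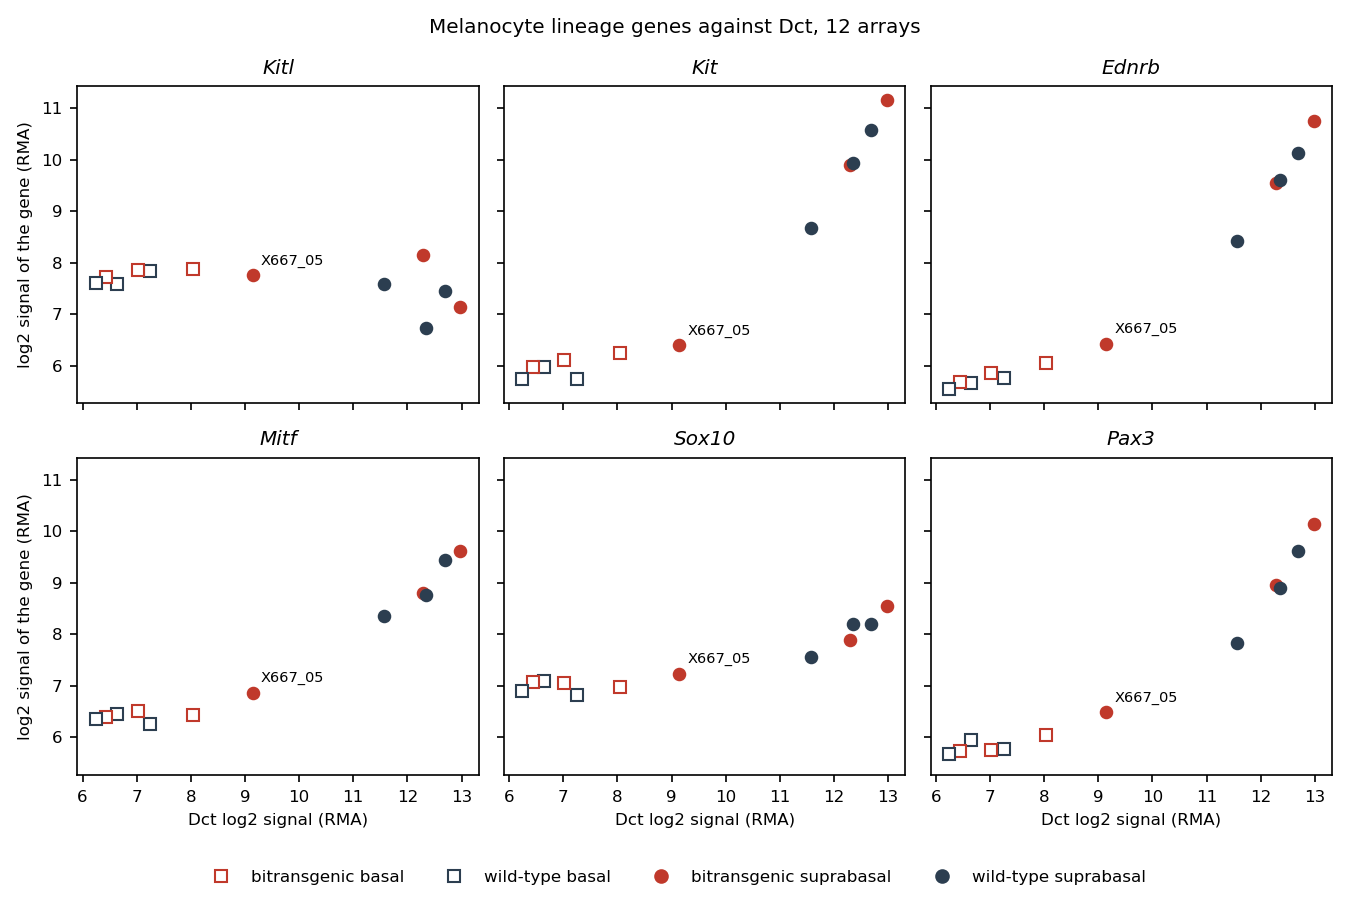
Log2 signal of each gene (y axis) against the log2 signal of Dct on the same array (x axis), for all 12 arrays; open squares are basal, filled circles suprabasal, red bitransgenic and dark blue wild type. X667_05 labels the suprabasal array with Dct at 9.14; Kit, Ednrb, Mitf, Pax3 and Sox10 rise with Dct over the suprabasal arrays and Kitl does not.

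A single fit over all 12 arrays, with the 4 group means removed, gave the change of each gene per unit of Dct. The slope was 1.04 ± 0.146 for Kit, 0.97 ± 0.119 for Ednrb, 0.82 ± 0.118 for Pax3, 0.58 ± 0.0981 for Mitf, 0.26 ± 0.0692 for Sox10 and -0.05 ± 0.0971 for Kitl (log2 per log2 of Dct, SE). None of the 6 was called after adjustment over all clusters: limma's adjusted p was 0.0856 for Ednrb, 0.112 for Kit, 0.121 for Pax3, 0.23 for Mitf, 0.478 for Sox10 and 0.968 for Kitl. With the code as a random block Ednrb was called (limma's adjusted p = 0.0363). Only 0.0091% of clusters were called, 6 in all, and 4 of these are pigment genes: Pmel (slope 1.03), Tyr (1.11), Mlana (1.03) and Tyrp1 (1.17), beside Mcoln3 (1.07), a cation channel gene, and Gdpd3 (0.49), a phosphodiesterase gene. Beside these values stand the slopes of Kit and Ednrb, about 1, and the lower slopes of Mitf and Sox10; the differences between slopes were not tested. Without X667_05 suprabasal, the array with the greatest deviation, the slopes were 0.67 for Ednrb, 0.64 for Kit, 0.64 for Pax3, 0.30 for Mitf and 0.18 for Sox10, so their size depended on that array. Basal arrays alone, with signals near background, gave slopes of 0.11 for Kit, 0.22 for Ednrb, 0.17 for Pax3, -0.03 for Mitf and -0.08 for Sox10. The slopes over 12 arrays thus do not describe the basal arrays.

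Genes with the most similar profile were sought by the root mean square difference of log2 profiles, each centred on its own mean over the 12 arrays, among 4336 genes above the intronic mark on at least 3 arrays. The nearest to Kit was Ednrb (0.14), followed by Gpnmb (0.18), a melanosome glycoprotein gene, and Slc24a5 (0.19), a melanosomal ion exchanger gene. For Ednrb the nearest were Kit (0.14), Slc45a2 (0.15), a melanosomal transporter gene, and Slc24a5 (0.16). Pax3 lay nearest to Ptgds (0.13), a prostaglandin D synthase gene, Vim (0.14), the intermediate filament gene vimentin, and Fstl4 (0.26). Mitf had Glrb (0.23), a glycine receptor subunit gene, Npy (0.24), neuropeptide Y, and Fstl4 (0.26). Sox10 and Kitl were not above the intronic mark on 3 arrays and were not matched under it; under the antigenomic mark, with 9417 candidates, the nearest to Sox10 was Npr2 (0.08) and to Kitl Snrpd3 (0.14).

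No other gene of the pathway lists was called between layers with all 12 arrays. In the average over genotypes 0.694% of all clusters were called lower in basal cells and 0.472% higher. At those shares, lists this short would mostly hold 0 calls, so the counts say little about these genes. Of 5 measured pathway ligands 0 were called in the average over genotypes, with a median log2 difference of 0.02, against -0.013 over all clusters; Nrg1, a neuregulin that signals to the Schwann cell and melanocyte lineages, had 0.78 (limma's adjusted p = 0.282) and Hgf, the ligand of Met, -0.18 (limma's adjusted p = 0.175). The ligand of Ednrb, Edn3, had a difference of -0.01 and was above neither mark on any array. Of 8 receptors and signal components 0 were called (median -0.07); Mc1r, the melanocortin receptor of pigment cells, had -2.35 (limma's adjusted p = 0.0554), the only one of the 8 beyond 1 on the log2 scale. Among 12 other transcription factors of the lineage 0 were called (median -0.19), and Sox5 (-0.53) and Foxd3 (-0.31), both neural crest factors, had the smallest p. The Mitf paralogs Tfe3, Tfeb and Tfec, which bind the same E-box, gave 0 of 3 called (median -0.04; Tfeb -0.38, limma's adjusted p = 0.0651). Without X667_05 suprabasal 3 of 8 receptors and signal components, 4 of 12 transcription factors and 1 of 3 paralogs were called lower in basal cells, and 1 transcription factor higher, while 0 of 5 ligands were called. That fit called 4.05% of all clusters, either way.

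Pigment genes, many of them targets of Mitf, gave the most calls among the lists read. Averaged over genotypes 9 of 16 were called lower in basal cells, against 0.694% of clusters, and 0 higher, with a median of -2.33. Without X667_05 suprabasal, an array singled out by Dct, itself in this list, it was 13 of 16, against 4.05% of clusters called either way. Dct (-4.90 ± 0.586, SE; limma's adjusted p = 0.0232), Pmel (-4.61), Mlana (-4.26) and Tyr (-4.53) had the smallest p, and all 4 encode enzymes or other proteins of the melanosome. Not called were Rab38 (-0.08), Rab27a (-0.22), Myo5a (-0.67) and Mreg (0.31), genes of vesicle traffic and melanosome transport, of which Rab38 was above the intronic mark on 11 of 12 arrays, and Oca2, Gpr143 and Mlph, between -1.34 and -0.99. In bitransgenic cells 0 of 16 were called, as for 0.0% of clusters. In wild type 5 of 16 were called lower, against 1.04% of clusters. Without X667_05 suprabasal it was 9 of 16 in each, against 0.191% of clusters in bitransgenic cells and 1.4% in wild type.

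**Figure D4:**
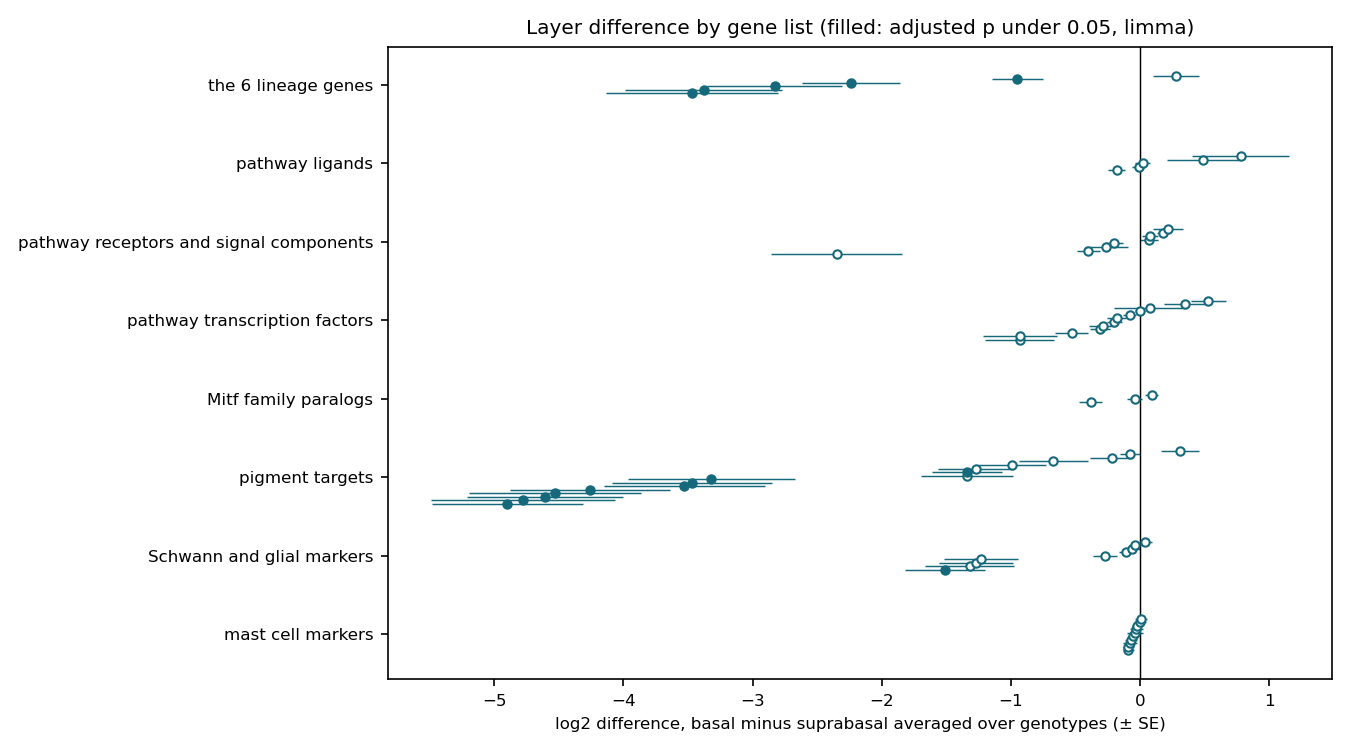
Log2 difference, basal minus suprabasal averaged over genotypes (x axis, ± SE from limma), of each gene in 8 lists (y axis); each point is 1 gene and filled points have adjusted p under 0.05. The 6 lineage genes and the pigment targets hold 5 and 9 called genes, the Schwann and glial list 1, and the other lists 0.

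Kit and Sox10 are also made by other skin cells, so the markers of those cells were read on the same arrays. Mast cells use Kit and Mitf. Of 10 mast cell markers 0 were above the intronic mark on any array, though Gata2 passed the antigenomic mark on 9 arrays. The mast cell proteases and receptor genes Cpa3, Cma1, Mcpt4, Tpsb2 and Ms4a2 were above neither mark. The summed unlogged signal of all 10 mast cell markers was 445 to 467 in bitransgenic basal, 419 to 449 in wild-type basal, 445 to 455 in bitransgenic suprabasal and 458 to 486 in wild-type suprabasal arrays. Averaged over genotypes 0 of 10 were called between layers (median -0.04), against 0.694% of clusters lower in basal cells and 0.472% higher. Without X667_05 suprabasal it was also 0 of 10. Schwann cells share Sox10. Of 9 Schwann and glial markers 1 was called lower in basal cells, against 0.694% of clusters, with a list median of -0.27. Without X667_05 suprabasal it was 4 of 9, against 4.05% of clusters called either way. The brightest of them, Pmp22, a myelin protein gene also made outside glia, was above the intronic mark on 3 arrays, while the myelin gene Mbp (0.04) was above it on 0. The summed signal of the Schwann and glial list was 827 to 886 in bitransgenic basal, 777 to 881 in wild-type basal, 882 to 1866 in bitransgenic suprabasal and 1085 to 1764 in wild-type suprabasal arrays. The part of glial cells in the Sox10 difference was not tested.

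No Merkel cell, fibroblast, muscle, endothelial or immune marker was above the intronic mark on any array (0 of 6, 0 of 5, 0 of 6, 0 of 5 and 0 of 4 measured genes). The more lenient antigenomic mark was passed by Acta1 on 12 arrays, Col1a1 on 9, Dcn on 8, and Krt8 and Ckm on 6 each. On 1 array or more it was passed by 4 of 5 fibroblast genes in each suprabasal group, 2 in bitransgenic basal and 1 in wild-type basal cells. No endothelial or immune marker passed it. In the average over genotypes 0 genes of these lists were called, with medians between -0.22 and -0.05. Of all clusters 0.694% were called lower in basal cells and 0.472% higher. Without X667_05 suprabasal, limma called 3 of 6 Merkel cell markers (Krt20, -0.42, Krt8, -0.27, and Atoh1, -0.24) and 3 of 5 fibroblast markers (Lum, -0.32, Col1a1, -0.31, and Col3a1, -0.28) lower in basal cells, the same direction as the 5 lineage genes, and 0 muscle, endothelial or immune markers. That fit called 4.05% of all clusters, either way. The part of these cells in the differences of the lineage genes was not tested. In wild type Atoh1, the Merkel cell factor, was called lower in basal cells (-0.39, limma's adjusted p = 0.0459), as was the muscle gene Ckm (-0.35, limma's adjusted p = 0.0405), both below the mark. The brightest marker of each list was Krt8 for Merkel cells (mean 7.04 over 12 arrays), Dcn for fibroblasts (7.42), Acta1 for muscle (7.57), Cdh5 for endothelium (5.56) and Cd207 for immune cells (5.92).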

How the data were processed

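RNA of 12 sorted keratinocyte samples was hybridised to Affymetrix MTA-1_0 arrays. The deposited values are log2 signals, 1 for each transcript cluster; Expression Console (Affymetrix), RMA and mm10 are named in the submitters' processing notes. RMA subtracts background, equalizes the distributions of the arrays and summarizes probes, so low signals are compressed and a change common to most clusters would not show. Per the file headers, the authors' table gives for each of its comparisons a linear fold of mean unlogged signals (a signed score, below 0 where the group named first is lower), a 2-sided unpaired p-value and a q-value, the false discovery rate (its method: not given in the sources used here).

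Without control sets (6732 of 72688, 9.26%), 65956 clusters were tested, dim ones included. A limma fit of 4 group means gave all differences, with Benjamini-Hochberg adjustment over all clusters and calls at adjusted p under 0.05; the slope on Dct added Dct, centred in each group, as a covariate. Alternatives changed the normalization, the clusters tested, the scale, the test (the design's unpaired, unmoderated one), the block for the code, a term for the sex pattern and the pigment gene, or left out 1 array at a time. Folds of genes not above the background mark on any array of a layer are bounds, taken against the mean over that layer's arrays of the mark or the gene's own signal, whichever was higher. Signals of the other layer entered as read, so a bound is approximate where some of its arrays were below the mark. Correlations used exact permutation of arrays within a layer. Both kinds of fit and the correlation were tested on simulated data. Deviations of same-code arrays from their group means had r of 0.136 and 0.241 for the bitransgenic codes and of 0.269, 0.533 and 0.37 for the wild-type codes. Different codes had a median of -0.066, with single pairs from -0.425 to 0.485, so the ranges overlapped. The fit of 4 group means used no block. The codes were treated as pairing the arrays only in the block alternatives and the same-code differences, on the data's evidence alone. The consensus correlation of the random block was 0.151.

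Described by rule were the 6 genes and Dct everywhere; from each list up to 4 called genes by adjusted p, or the 2 of smallest p as values; the brightest gene of each list of another cell type; and 3 most similar genes. Further list members were named after their values were seen. The members and lists were chosen with earlier results of these data known. Some genes of the Schwann and glial list are not reported here by name. Asip, Zeb2, Pdgfra, Cd74 and Trdc had no cluster with a single symbol. Fits ran in limma 3.58.1 under R 4.3.3 with the R package data.table, version 1.17.8. Other steps used pandas 2.3.3, scipy 1.17.1, numpy 2.4.6 and matplotlib 3.10.9 under Python 3.11.15.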

Additional observations from a re-analysis of the deposited data

Results flagged for a closer look

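The Dct signal of the bitransgenic suprabasal array X667_05 was 9.14, farther below the other 5 suprabasal arrays than Dixon's test at the 95% level allows for 6 values. The gap to the nearest array was 0.633 of the whole range. A test of this kind marks about 1 in 20 sets of values by chance. Kit, Ednrb, Mitf, Pax3 and Sox10 were also lowest on this array among the suprabasal arrays, and none of them passed that test.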

How the results depend on the processing

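The layer differences of the 5 genes that were lower in basal cells kept their sign in all 370 alternatives over 15 results, but the calls did not. Most of these alternatives could not turn the sign, so that count is not a measure of robustness. Every basal array was below every suprabasal array for these genes, so leaving out 1 array could not turn it. Settings that changed only the test or the clusters tested left the difference as it was. Of the 6 genes, the average over genotypes called 5, against 0 with the code as a fixed replicate block, 0 with the design's unmoderated test, 0 on unlogged signals and 0 to 5 leaving out 1 array. Wild type called 0, against 3 among clusters above the median, 3 among clusters with 1 symbol (both test fewer clusters), 4 with array weights, 5 with a random and 4 with a fixed replicate block, and 0 to 5 leaving out 1 array. Bitransgenic cells called 0, and 0 to 4 leaving out 1 array. The slope on Dct called 0, but 1 (Ednrb) under cyclic loess, the mean of 5 pigment genes, a random replicate block or a sex-pattern term, and 0 to 2 leaving out 1 array. Over all clusters, calls ran from 0 to 3600 in wild type (957 as reported) and from 0 to 3049 in the average (769 as reported). The block changed no other call of the 6 genes.

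Signs turned for values that were not called. The bitransgenic layer difference of Kitl was -0.16 with array weights (-0.13 to 0.37 leaving out 1 array). In basal cells the genotype difference was -0.17 for Kitl with a sex-pattern term and -0.01 for Pax3 after centring (-0.06 to 0.12 leaving out 1 array). In suprabasal cells it was 0.14 for Mitf, 0.26 for Sox10, 0.35 for Kit, 0.36 for Ednrb and 0.51 for Pax3 with a sex-pattern term, and 0.18, 0.20 and 0.21 for Kit, Ednrb and Pax3 on unlogged signals. Leaving out 1 array there gave -1.01 to 0.36 for Mitf, -0.43 to 0.23 for Sox10, -1.58 to 0.79 for Kit, -1.39 to 0.77 for Ednrb and -1.06 to 0.77 for Pax3. For the interaction it gave -0.27 to 1.10, -0.14 to 0.52, -0.50 to 1.87, -0.57 to 1.60 and -0.73 to 1.10 for the same genes. Basal arrays alone gave slopes of -0.03 for Mitf, -0.08 for Sox10 and 0.13 for Kitl (-0.12 to 0.09 leaving out 1 array). The basal r of Mitf was -0.36 without 2 arrays and -0.311 against Tyrp1, that of Kit -0.413 and of Pax3 -0.215 without 2 arrays. The causes of these turns were not tested. Signals near background limit every basal value, and 3 arrays a group limit the precision. Other clusters of a symbol could not be tried, since each gene has 1, and a fixed block could not be fitted to the genotype comparisons, because codes lie within a genotype.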
